A study of Mus musculus with 2 samples.

Results

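The genes described here encode the glycoprotein receptors of the platelet surface and the chemokines stored in platelet alpha granules. They are 10 of the 54532 genes in the deposited table and were chosen by symbol: Pf4, Ppbp, Itga2b, Itgb3, Gp9, Gp5, Gp1ba, Gp1bb, Gp6 and Clec1b. Each symbol matched 1 row. They were measured by RNA sequencing of sorted marrow niche cells, the stroma that surrounds blood stem cells, in CB6F1 hybrid mice after bone marrow transplantation. Both groups of recipients were female, were irradiated with 2 doses of 4.0 Gy and received marrow nucleated cells of B6.SJL mice 4 hours later. The group labelled BMT received nothing more, and the group labelled aGVHD_V also received spleen cells of female C57BL/6 mice to bring on acute graft-versus-host disease, an attack of donor T cells on the tissues of the recipient. What the V stands for, the ages of the mice, the day of sampling and the number of mice behind a library are unknown here. The sort removed cells with CD45, lineage antigens or CD71, and dead cells. There is 1 library per group, so no difference below has a replicate check, and the groups were not tested against each other.

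Platelets are fragments shed by megakaryocytes, the giant polyploid cells of the marrow that sit against its blood vessels. The receptor complex of glycoproteins Ib, IX and V catches von Willebrand factor on a damaged vessel wall, glycoprotein VI binds collagen, and the lectin encoded by Clec1b binds podoplanin. Signals from these receptors switch on the integrin made by Itga2b and Itgb3, which binds fibrinogen and holds platelets together. Alpha granules release chemokines, chiefly those encoded by Pf4 and Ppbp, and megakaryocyte Pf4 protein is known as a restraint on blood stem cell division. Megakaryocyte genes are controlled by factors of the GATA family, led by Gata1, and of the ETS family, among them Fli1.

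Because these genes share such regulators, the 250 bases before the start site were read from RefSeq (GRCm38.p6), which listed 9 of the 10 genes. Shown are those of the neighbouring genes Pf4 and Ppbp, which encode the chemokines and differed from each other in their values, and of Gp9 and Gp5, partners in 1 receptor complex with like ratios. They are printed 5′ to 3′ on the strand of the gene. Capitals mark matches on either strand to GATAA (the core bound by GATA factors), GGAAG (the core bound by ETS factors) and TATAA.
Pf4, chr5:90772185-90772434, plus strand: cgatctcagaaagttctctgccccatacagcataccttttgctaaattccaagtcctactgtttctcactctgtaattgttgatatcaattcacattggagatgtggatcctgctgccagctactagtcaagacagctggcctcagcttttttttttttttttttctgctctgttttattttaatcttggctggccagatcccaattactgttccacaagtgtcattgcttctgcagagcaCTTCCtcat
Ppbp, chr5:90768268-90768517, plus strand: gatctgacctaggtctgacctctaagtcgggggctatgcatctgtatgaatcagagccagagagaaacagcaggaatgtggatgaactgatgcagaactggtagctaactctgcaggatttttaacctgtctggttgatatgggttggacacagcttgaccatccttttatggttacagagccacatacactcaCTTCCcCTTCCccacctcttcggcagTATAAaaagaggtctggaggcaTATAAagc
Gp9, chr6:87777820-87778069, plus strand: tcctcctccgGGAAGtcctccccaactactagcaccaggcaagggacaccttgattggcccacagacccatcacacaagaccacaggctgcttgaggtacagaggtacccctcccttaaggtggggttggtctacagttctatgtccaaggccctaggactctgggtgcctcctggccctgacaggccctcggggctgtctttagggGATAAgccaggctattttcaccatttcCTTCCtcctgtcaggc
Gp5, chr16:30310782-30311031, minus strand: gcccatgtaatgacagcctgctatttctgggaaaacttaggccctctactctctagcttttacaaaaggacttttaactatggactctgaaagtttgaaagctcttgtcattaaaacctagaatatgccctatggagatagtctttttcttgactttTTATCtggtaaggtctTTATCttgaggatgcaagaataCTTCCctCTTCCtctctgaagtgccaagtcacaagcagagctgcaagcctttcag

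The sequence before Pf4 held 1 match, a GGAAG on the opposite strand 9 to 5 bases before the start. Ppbp had a pair of GGAAG matches on the opposite strand, beginning 56 and 50 bases before the start, and TATAA at 30 and at 8 bases. Gp9 had GATAA at 43 bases and GGAAG at 240 and 16 bases. Gp5 had GATAA at 93 and 77 bases and GGAAG at 55 and 48 bases, all on the opposite strand. Over the 9 genes, 5 had GATAA, against 22.6% of the 32851 promoters in the table. GGAAG was present in 7 of 9 against 64.1%, and TATAA in 3 of 9 against 22.8%. Both GATAA and GGAAG occurred in 3 of 9 (Gp9, Gp5 and Gp1ba) against 13.2%. In Clec1b a GATAA and a TATAA lie directly beside each other, and other matches of different motifs do not overlap. The RefSeq start of Itga2b lies 239 bases inside the gene as the table gives it, so its sequence is not printed. These matches describe letters in a window and do not show that a factor binds.

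**Figure D1:**
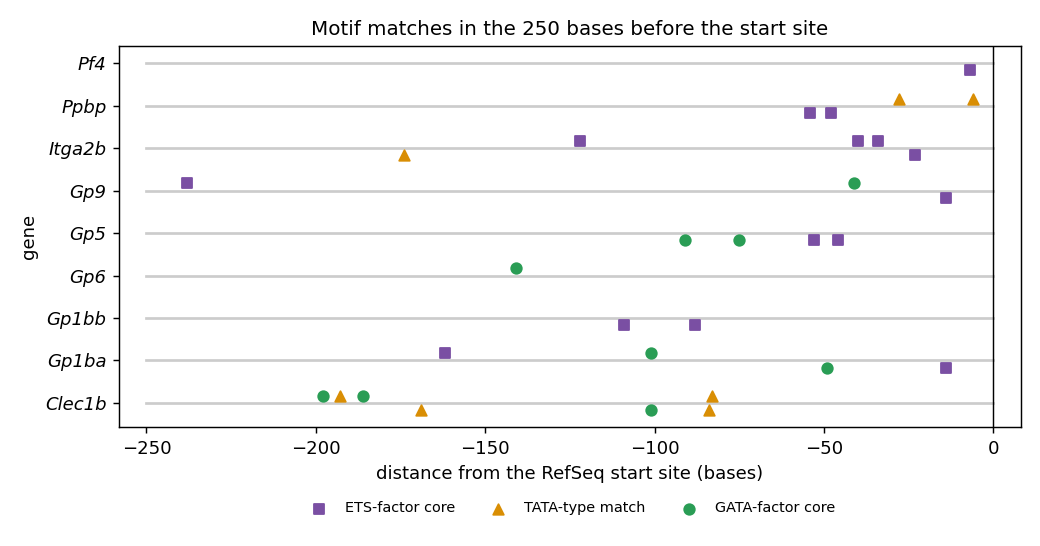
Position of motif matches (horizontal axis, bases from the RefSeq start site) in the 250 bases before 9 genes (vertical axis), above the line on the strand of the gene and below it on the opposite strand. GATA-factor cores appear in 5 genes, ETS-factor cores in 7 and TATA-type matches in 3.

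The values are FPKM (sequenced fragments scaled to the length of the gene and a library size), and they could be turned back into reads. The read totals were 10869191 for BMT and 11299834 for aGVHD_V, of which the 10 genes took 1645 and 4030 reads. The library sizes behind the FPKM were 12127105 and 10661688, so the aGVHD_V size is below its own read total. How these sizes were set is unknown here. They give higher ratios of aGVHD_V over BMT than the read totals would. With the read totals as sizes, the difference of Pf4 on log2(FPKM + 1) was 2.47 instead of 2.71. A detected gene most often had 14 reads in BMT and 44 in aGVHD_V. Each ratio below therefore has 2 exact conditional binomial 95% intervals. The interval over reads counts every read, and the widened interval counts 14 or 44 reads as 1 molecule. Both cover counting error only, and neither holds any variation between mice. They take the library sizes behind the FPKM as given, so limits of a ratio between libraries would be lower with the read totals. A gene needs 3 such counts (42 or 132 reads) in both libraries for a ratio to be given here, and 6 of the 10 genes met this. The labelled cell type was only partly borne out in BMT and less so in aGVHD_V. Erythroid markers summed to an FPKM of 45498 in BMT and 166699 in aGVHD_V, and neutrophil markers to 15344 and 20745, despite the sort. All 12 listed mesenchymal stromal markers had values above 0 in BMT and summed to 737. In aGVHD_V they summed to 42.1, and Lepr had no reads.

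**Figure D2:**
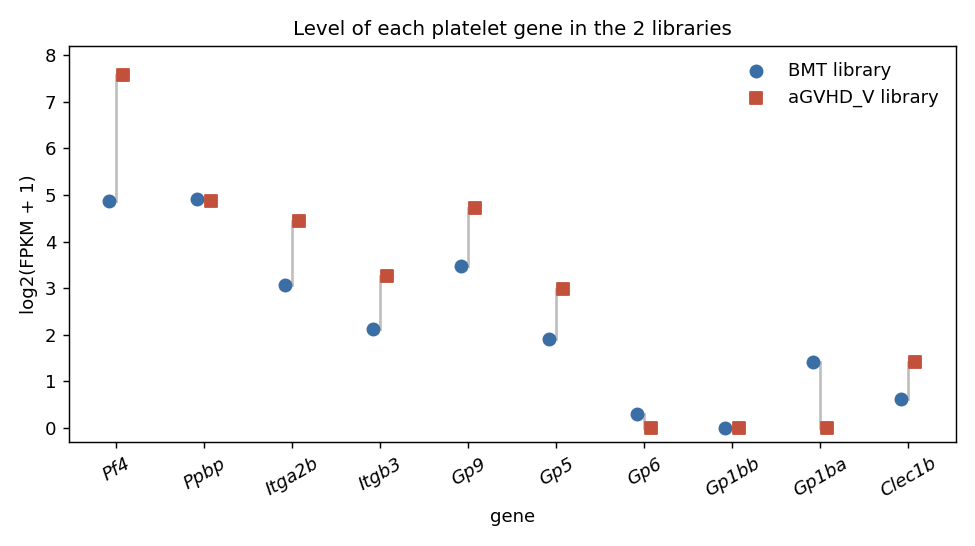
Level of each of the 10 genes (horizontal axis) as log2(FPKM + 1) (vertical axis) in BMT (circles) and the aGVHD_V library (squares), 1 library each. Pf4 shows the widest gap (FPKM 28.4 against 191), Ppbp lies at nearly the same level in both, and Gp1bb is at 0 in both.

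The chemokine genes came out differently from each other. Pf4, which encodes platelet factor 4, had an FPKM of 28.4 in BMT (248 reads) and 191 in aGVHD_V (1465 reads). It was thus 6.72-fold higher, with an interval of 5.87 to 7.72 over reads and 3.67 to 12.7 when widened. Ppbp, which encodes the precursor of several CXC chemokines including the one that recruits neutrophils to clots, had an FPKM of 29.2 (384 reads) and 28.3 (327 reads). Its ratio of 0.969 had an interval of 0.833 to 1.13 over reads and 0.368 to 2.23 when widened, so a change of up to 2-fold in either direction lies within the widened limits. The genes were at the same level in BMT and apart in aGVHD_V. Pf4 was at 0.97 times the FPKM of Ppbp in the first (widened interval 0.502 to 1.83) and at 6.73 times in the second (2.98 to 17.5). The second ratio was 6.94 times the first, with an exact conditional interval of 2.35 to 22.7 on widened counts rounded to whole numbers.

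Pf4 (ENSMUSG00000029373) lies on chromosome 5 at 90772435 to 90773383 of GRCm38, and Ppbp (ENSMUSG00000029372) at 90768518 to 90770063 on the same plus strand, with 2371 bases between them. In the printed sequences Ppbp carries TATAA near its start and Pf4 does not. Whether this bears on their values was not tested. Other CXC chemokine genes of the same cluster, named after their values were seen, were not higher in aGVHD_V. Cxcl2 had an FPKM of 40.7 in BMT and 21.5 in aGVHD_V, and Cxcl1 had 10.5 and 4.0. Cxcl5 and Cxcl15 had no reads in either library, and Cxcl3 had 10 reads in BMT only. A gene is called measured here where either library reached an FPKM of 1. Among the 12942 such genes Pf4 had the 124th largest difference toward higher values in aGVHD_V on the log2(FPKM + 1) scale, with falls not ranked. Among the 5438 genes that reached an FPKM of 10 it was the 71st in that direction. By level Pf4 was gene number 1945 of all genes in BMT and number 246 in aGVHD_V, whereas Ppbp was number 1882 and number 2070.

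Both chains of the fibrinogen receptor were higher in aGVHD_V in the values as deposited, and by similar ratios. Itga2b, the alpha chain CD41, which is also present on early blood progenitors, had an FPKM of 7.38 (488 reads) and 20.8 (1210 reads). Its ratio was 2.82, with intervals of 2.54 to 3.14 over reads and 1.65 to 4.79 when widened. Itgb3, the beta chain, which osteoclasts and other cells also use in a different integrin, had an FPKM of 3.34 (239 reads) and 8.55 (538 reads). That is a ratio of 2.56, with intervals of 2.19 to 2.99 and 1.12 to 5.66. The lower widened limit is close to 1 and was not computed at other library sizes. Within a library the alpha chain stood at 2.21 times the FPKM of the beta chain in BMT (widened interval 1.21 to 4.2) and at 2.43 times in aGVHD_V (1.2 to 5.23). The ratio between the chains therefore changed 1.1-fold between libraries, with an interval of 0.427 to 3.07. The genes lie far apart on chromosome 11, Itga2b (ENSMUSG00000034664) at 102453297 to 102470122 on the minus strand and Itgb3 (ENSMUSG00000020689) at 104608000 to 104670476 on the plus strand.

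Of the 4 subunits of the von Willebrand factor receptor, Gp9 and Gp5 had enough reads for a ratio, and their ratios were alike. Gp9, the small subunit glycoprotein IX, had an FPKM of 10.1 (108 reads) in BMT and 25.3 (238 reads) in aGVHD_V. The ratio of 2.51 had an interval of 1.99 to 3.18 over reads, and the widened interval of 0.672 to 8.61 included no difference. Gp5, the subunit that thrombin cleaves, had an FPKM of 2.78 (74 reads) and 6.92 (162 reads). Its ratio was 2.49, with intervals of 1.88 to 3.32 over reads and 0.47 to 11.5 when widened. Gp9 stood at 3.64 times the FPKM of Gp5 in BMT and at 3.66 times in aGVHD_V, but the widened interval of the change between these runs from 0.102 to 6.14. Gp9 (ENSMUSG00000030054) lies on chromosome 6 at 87778072 to 87779768, and Gp5 (ENSMUSG00000047953) on chromosome 16 at 30307685 to 30310779.

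Gp1ba, the subunit that binds von Willebrand factor itself, had 55 reads and an FPKM of 1.67 in BMT and none in aGVHD_V. The 3 counts that go undetected in aGVHD_V correspond to an FPKM of 4.56 for this gene, above its BMT level, so a difference was not detectable at this depth. Gp1bb, the beta chain linked to it, had no reads in either library. According to GENCODE M21, 1938 of its 2087 exon bases (92.9%) also belong to exons of Sept5 or Gm49601 on the same strand. Sept5, matched by its identifier and named after its values were seen, had 129 and 78 reads, and Gm49601 had none. The labels and headers do not say how reads in shared bases were counted, so the 0 of Gp1bb does not show that its transcript was missing.

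The collagen and podoplanin receptors were near the limit of detection. Gp6, glycoprotein VI, had 16 reads (FPKM 0.224) in BMT and none in aGVHD_V, under the floor in both. Clec1b had 33 reads (FPKM 0.533) and 90 reads (FPKM 1.65), also under the floor of 42 and of 132 reads, so no ratio is given. Of its exon bases 3.61% are shared with Clec9a, which had 7 reads in BMT and none in the other. The value of Clec1b was higher and that of Gp6 lower in aGVHD_V. No interval was computed for either gene, so neither difference was judged against counting error.

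**Figure D3:**
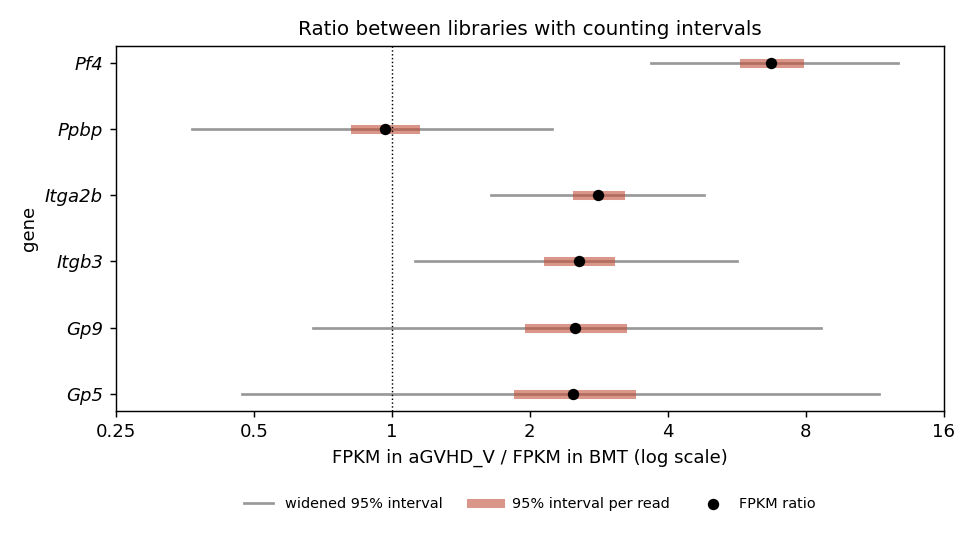
Ratio of FPKM, aGVHD_V over BMT (horizontal axis, log scale), for the 6 genes with at least 3 counts in both libraries (vertical axis). Thick bars are 95% intervals over reads and thin bars the widened intervals. At the library sizes behind the FPKM, the widened interval lies above 1 for Pf4, Itga2b and Itgb3 and includes 1 for Ppbp, Gp9 and Gp5.

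Over the 10 genes, 8 were measured, and 5 of these were at least 2-fold higher in aGVHD_V on the log2(FPKM + 1) scale: Pf4, Itga2b, Itgb3, Gp9 and Gp5. Gp1ba was counted as at least 2-fold lower on this scale, although its difference was not detectable at this depth, and Ppbp and Clec1b lay between. Of all 12942 measured genes 8.65% were at least 2-fold higher and 19.4% at least 2-fold lower. Gp1ba and Clec1b were measured through 1 library only. With a minimum FPKM of 5, 6 of the genes were measured, of which 5 were higher and 0 lower, against 7.7% and 10.7% of 8000 genes. Itgb3 and Gp5 passed that minimum only through aGVHD_V, where they are high, so their calls there add nothing. The split of 5 higher and 1 lower became 1 higher (Pf4) and 1 lower (Gp1ba) when each library was rescaled to the same FPKM sum, which moved the median gene by -0.56. Under that rescaling 6.18% of all measured genes were at least 2-fold higher and 33.8% lower. The median difference over the 8 genes was 1.1, beside -0.07 over all measured genes. It was 1.07 over 7 genes without Pf4, and 0.93 over all 10 without the minimum. The summed FPKM was 83.6 in BMT and 282 in aGVHD_V, a ratio of 3.37, and Pf4 made up 33.9% and 67.5% of it. Without Pf4 the sums were 55.3 and 91.6, a ratio of 1.66. These sums stand beside a rise over all genes, whose FPKM summed to 340171 in BMT and 507958 in aGVHD_V. In a mixture of sorted cells, a change in the number of platelet-lineage cells or fragments and a change in their RNA content cannot be told apart.

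Among the genes with reads in both libraries, the order of the levels per length differed only at the top. Gp1ba and Gp6 had reads in BMT only, and most neighbouring pairs did not differ beyond their intervals. In BMT the order ran Ppbp, Pf4, Gp9, Itga2b, Itgb3, Gp5, Gp1ba, Clec1b and Gp6. Of the 8 neighbouring pairs in this order, only Pf4 over Gp9 (2.81-fold, widened interval 1.15 to 7.6) and Itga2b over Itgb3 differed beyond their intervals. In aGVHD_V Pf4 came first, followed by Ppbp, Gp9, Itga2b, Itgb3, Gp5 and Clec1b. There the pairs that differed were Pf4 over Ppbp and, again, Itga2b over Itgb3. With 2 libraries a pattern across samples is a single difference, so no gene can be named as most like these in pattern.

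Other platelet and megakaryocyte genes mostly lay within 2-fold between the libraries. Of 101 genes on 6 lists by role, 92 were measured, of which 4 were at least 2-fold higher in aGVHD_V and 15 lower, with a median difference of -0.25. These counts stand beside the 8.65% higher and 19.4% lower of all measured genes. With each library rescaled to the same FPKM sum, 2 were higher and 37 lower, beside 6.18% and 33.8% of all measured genes. The equal-sum counts given below for single lists stand beside those same shares.

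Among other alpha-granule genes, none of 18 measured was at least 2-fold higher and 6 were lower, with a median of -0.44. At the equal FPKM sum 9 were lower. Ccl5, a chemokine that T cells also make, named after its values were seen, had an FPKM of 46.8 and 88.9 (ratio 1.9, widened interval 1.06 to 3.32). Vwf, the large adhesive protein of alpha granules and endothelium, had an FPKM of 1.59 in BMT and 2.45 in aGVHD_V (ratio 1.55, widened interval 0.642 to 3.44). Srgn, the proteoglycan that packs granule contents, was at 156 and 155. Lower members were led by genes that stromal cells also express: Sparc, a collagen-binding protein, at 110 and 13.05, Timp1, a metalloproteinase inhibitor, at 5.85 and 0, and Serpine2, a thrombin inhibitor, at 21.1 and 6.36. The floor of Timp1 in aGVHD_V is an FPKM of 13.9, above its BMT level, so its difference was not detectable at this depth. Pros1, the anticoagulant protein S, was at 9.38 and 2.89.

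The list of agonist receptors, tetraspanins and other surface proteins went both ways, and its genes past 2-fold were at low levels. Of 17 measured genes 2 were higher, 3 lower and 12 between, and the median was 0.03. At the equal FPKM sum 7 were lower and 2 higher. The higher genes were protease-activated receptors for thrombin, F2rl2 (0 and 43 reads, FPKM 0 and 1.61) and F2rl3 (3 and 36 reads, FPKM 0.124 and 1.69). Both were under the floor in both libraries. F2r, another thrombin receptor, named after its values were seen, was among the lower genes (394 and 150 reads, FPKM 9.74 and 4.22). It was above the floor in both libraries, with a ratio of 0.433 and a widened interval of 0.0958 to 1.32. Itga6, a laminin receptor chain, had an FPKM of 2.99 and 0.572, and Ptgir, the prostacyclin receptor, 3.51 and 0.9, with a floor of 3.71 in aGVHD_V that left its difference undetectable. Itgb1, a chain shared by many integrins and cells, was level at 74.5 and 78.6.

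Signalling genes between the glycoproteins and the integrin were nearly all within 2-fold in the values as deposited. Of 20 measured genes 19 lay within that range, with a median of -0.26. At the equal FPKM sum none was higher, 5 were lower and the median was -0.83. The exception among the deposited values was Pik3cb, a phosphoinositide kinase, at 6.22 and 13.6 (ratio 2.19, widened interval 1.26 to 3.74), which fell short of 2-fold on the log2 scale under 6 of the 12 alternative settings. Fcer1g, the signalling chain that glycoprotein VI needs and that mast cells and phagocytes also use, was at 82.6 and 110 (ratio 1.33, 0.792 to 2.18). Syk, the kinase that acts below it, was at 14.0 and 8.86, Plcg2 at 18.8 and 12.2, and Vav3 at 2.13 and 0.687. Fermt3, kindlin of blood cells, was the most abundant at 127 and 143. These genes are active in many blood cells and cannot be assigned to platelets here.

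The most abundant transcription factors of the lineage were those shared with red cell precursors. Gata1 had an FPKM of 75.9 and 90.8, Zfpm1, its partner, 114 and 140, and Nfe2, a factor of platelet release and globin expression, 62.0 and 106 (ratio 1.71, widened interval 1.29 to 2.26). Gfi1b, a repressor of both lineages, was the only gene of 13 measured that was at least 2-fold higher, at 53.1 and 114 (ratio 2.14, 1.48 to 3.07). Mafg, which pairs with the Nfe2 protein, was at 12.3 and 22.3. Fli1, which is typical of megakaryocytes and endothelium, was at 7.78 and 5.68 (ratio 0.729, 0.211 to 1.99). Etv6, another ETS factor, was the only gene at least 2-fold lower, at 10.1 and 2.65 (3.82-fold, 1.38 to 15.0), and Mef2c was at 1.41 and 0.328. The median of the list was -0.13, and at the equal FPKM sum none was higher and 4 were lower.

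Among genes of proplatelet and granule formation, 3 of 18 measured were at least 2-fold lower and none higher, a share of lower genes close to that of all measured genes, and the median was -0.4. At the equal FPKM sum 9 were lower. The 3 genes are known in the lineage and had few reads. Tubb1, the tubulin of the platelet ring, had 145 and 47 reads (FPKM 8.5 and 3.14), Slc35d3, a gene of dense granules, 68 and 0, and Treml1, an alpha-granule membrane receptor, 19 and 0. Each had a BMT level below its floor in aGVHD_V (an FPKM of 8.81, 4.71 and 8.83), so these differences were not detectable at this depth. Broadly expressed members had more reads, with Tuba4a at an FPKM of 89.0 and 126 (ratio 1.42, widened interval 1.13 to 1.77) and Bin2 at 29.8 and 15.8. Of 6 genes of lipid mediator synthesis 2 were lower, Ltc4s (3.01 and 0) and Alox12, the platelet lipoxygenase (3.09 and 0.643), and at the equal FPKM sum 3 were. The floor of Ltc4s in aGVHD_V is 12.2, so its difference was not detectable. Mgll, a lipase, was at 15.4 and 18.01, and Pla2g4a, which frees arachidonic acid, at 3.24 and 1.91.

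**Figure D4:**
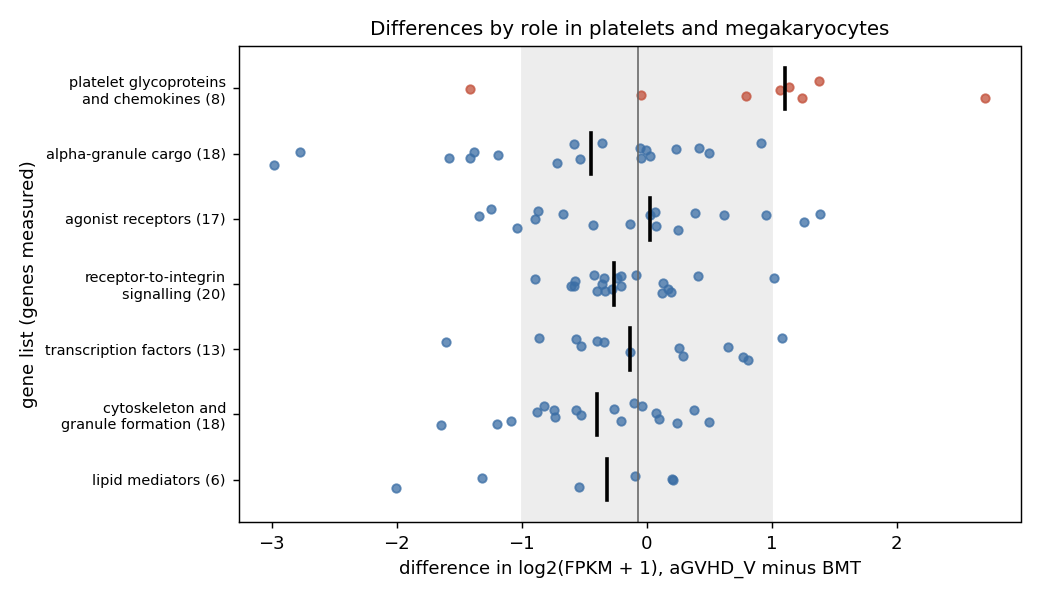
Difference in log2(FPKM + 1), aGVHD_V minus BMT (horizontal axis), of each measured gene (points) on 7 lists (vertical axis, number measured in brackets), with list medians as bars, all measured genes' median (-0.07) as a line and the range within 2-fold shaded. The platelet glycoprotein and chemokine genes have a median of 1.1, and the other 6 lists lie between -0.44 and 0.03.

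Erythroid markers and mast cell and basophil markers had median differences of 1.03 and 0.81 (0.45 and 0.29 at the equal FPKM sum). Medians of the other marker lists were at most 0.24. The part of any of these cells in the platelet values was not tested. Counts on these lists stand beside 8.65% higher and 19.4% lower of all measured genes. At the equal FPKM sum those shares are 6.18% and 33.8%. Of 11 erythroid markers 6 were at least 2-fold higher in aGVHD_V (4 at the equal FPKM sum) and none was lower. Their summed FPKM had a ratio of 3.66 beside 3.37 for the platelet genes, with Hba-a1 the most abundant, and none was at 0. Among 6 mast cell and basophil markers 3 were higher and none lower (2 and 1 with each library at the same FPKM sum), the sums were 81.6 and 197, and none was at 0. Their most abundant gene was Prss34, a basophil protease, at 46.8 and 108. Of 9 megakaryocyte markers outside the 10 genes, 7 were measured, 1 was higher and 3 lower, and the sums were 22.1 and 16.4. Mpig6b and F2rl2 had no reads in BMT, and Treml1 and Slc35d3 none in aGVHD_V. These 9 markers are also on the role lists.

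Osteoclasts share Itgb3. Of their 8 listed markers, Calcr, Oscar, Dcstamp and Ocstamp had no reads in either library, and 3 were measured, of which 1 was higher and 1 lower. Acp5, a phosphatase of osteoclasts and macrophages on the same list, named after its values were seen, had an FPKM of 20.1 and 55.4 (ratio 2.75, widened interval 1.6 to 4.66). Acp5 was at least 2-fold higher as deposited and not at the equal FPKM sum. Ctsk went the other way, with 251 reads (FPKM 13.7) in BMT and none in aGVHD_V, where its floor is an FPKM of 8.19. Atp6v0d2 also had no reads in aGVHD_V. The 8 markers summed to 116 and 153, with Mmp9 the most abundant. Monocyte and macrophage markers, from cells in which Pf4 is also known to be transcribed, summed to 271 and 280, none of 10 was higher, 1 was lower (6 with each library at the same FPKM sum) and none was at 0. Ly6c2 led them at 93.2 and 122. Neutrophil markers, with S100a9 the most abundant, were all 10 within 2-fold, and none was at 0. Progenitor markers, 4 of 8 measured and led by Ly6a, summed to 45.3 and 32.9, all 4 lay within 2-fold (2 were lower with each library at the same FPKM sum), and Mecom and Hlf had no reads in either library. All 12 mesenchymal markers were at least 2-fold lower, and Cxcl12 was the most abundant. Of 12 endothelial markers 8 were lower (10 at the equal FPKM sum) and none higher. Their sums were 98.7 and 24.0 with Plvap the most abundant, and Cdh5, Kdr, Cldn5 and Tek had no reads in aGVHD_V.

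The differences depended on how the libraries were scaled, which matters most for the glycoproteins close to the 2-fold limit. Pf4 kept a difference of at least 2-fold under all 12 alternative settings, from 2.13 to 2.74 on the log2 scale. Itga2b and Gp9 stayed above 0 in all 12 and at or above 2-fold in 10, and Itgb3 and Gp5 stayed above 0 in all 12 and at or above 2-fold in 8. Ppbp ran from -0.62 to -0.01. Gp1ba ran from -4.14 to 0, with 0 where genes without reads were set to their floor.

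**Figure D5:**
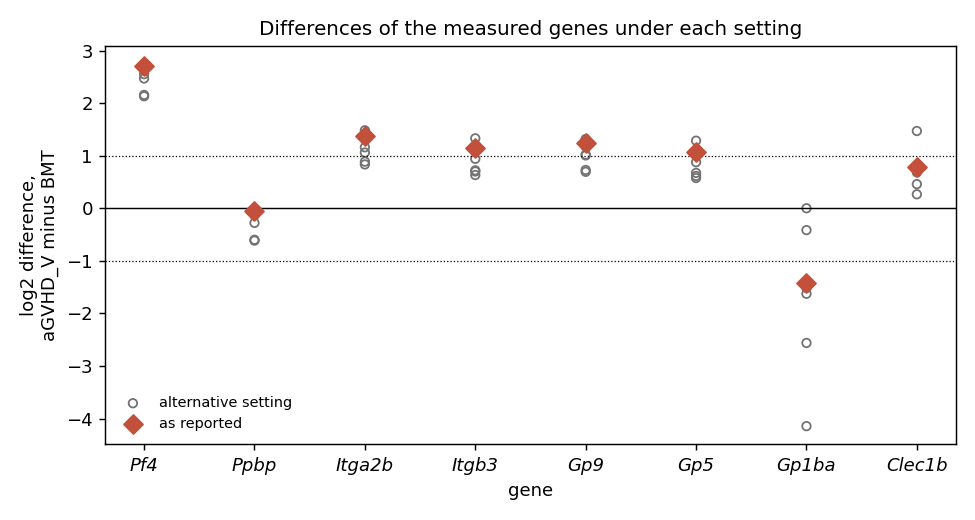
Difference on the log2 scale, aGVHD_V minus BMT (vertical axis), of the 8 measured genes (horizontal axis) as reported (diamonds) and under up to 12 alternative settings (circles), with dotted lines at 2-fold. Pf4 stays above 2 and Ppbp at or below 0, and Gp1ba, without reads in aGVHD_V, moves most.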

How the data were processed

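RNA sequencing gave 1 library of the BMT group and 1 of the aGVHD_V group, assigned from their titles. The authors deposited 1 table of FPKM per gene, per the file headers, and edgeR 3.18.1 and the builds GRCm38 and mm10 are listed in the submitters' processing notes. The aligner, counter and strand setting were not given in the sources used here. Besides the FPKM, the file also has 1 column of values that carries no label of these samples, and it was left unused. FPKM times gene length gave whole multiples of 1 step per library (100% of values above 0, tolerance 0.05), and hence reads. The modal read number was taken over read numbers of 4 or more in a window of 7 values. Python 3.11.15 with scipy 1.17.1 was used. Read recovery, the 2-fold calls and interval coverage were tested on simulated data of independent reads. The modal read number, the floors and the widened counts were not tested in this way. Genes were called measured where either library reached an FPKM of 1, and a difference of 1 on log2(FPKM + 1) was counted as 2-fold. That scale understates differences of low genes. For a repeated symbol the row richest in reads was kept. Sums of FPKM, interval limits and the reads behind each value give the precision. Exon overlap was taken from GENCODE M21, whose gene starts, ends and exon lengths matched the table for the 10 genes, and promoters from RefSeq GRCm38.p6.

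The genes, the 6 role lists and the 9 marker lists were chosen with earlier results of these data known. The text names all 10 genes, up to 4 genes with the largest difference and the most abundant gene of each role list, Gata1, Fli1, Nfe2, Vwf and Fcer1g, and the most abundant gene of each marker list. Other names are given as chosen after their values were seen, or as markers without reads. Values of 1 listed gene are not reported here. The 12 alternatives were 2 pseudocounts, 6 scalings, 2 other minimums, genes without reads at their floor and, added after seeing the data, a minimum of 3 counts.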

Additional observations from a re-analysis of the deposited data

How the results depend on the processing

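The count of 5 genes at least 2-fold higher became 3 with a pseudocount of 5 or with library sizes of all recovered reads. It became 1 when each library, or the aGVHD_V library alone, was rescaled to an equal FPKM sum. These rescalings moved the median gene by -0.22, -0.56 and -0.51. The count of 1 gene at least 2-fold lower became 0 with a pseudocount of 5, with a minimum FPKM of 5 and with the floor in place of 0 reads. For the median difference, 1.1 became 1.32 with a pseudocount of 0.1, 0.66 with a pseudocount of 5, 0.72 and 0.604 with the equal-sum rescalings of both libraries and of the aGVHD_V library alone, 0.91 with sizes of all recovered reads and 0.93 without a minimum. The count of 5 stayed within 1.5 times under the other 8 alternatives and the median within 0.1 under the other 6. Beyond what the settings do by construction, the cause was not tested. No paired analysis was possible because each group has 1 library. Depth limits Gp6, Gp1ba and Clec1b, which had fewer than 3 counts in at least 1 library. Gp1bb had no reads in either library, and how reads in its shared exon bases were counted is unknown.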
